A study of Mus musculus with 12 samples.

Results

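The genes described here are 7 surface markers by which mouse hematopoietic stem cells (HSCs) and their progenitors are recognized, namely Kit, Ly6a, Flt3, Cd34, Cd48, Slamf1 and Procr. They were listed by gene name, with no cut on their values but with earlier results of these data known, and each had a row of its own among the 31340 gene rows of 12 RNA-seq libraries. All libraries came from bone marrow cells of wild-type mice that were sorted as HSCs, and the methods name C57BL/6 as the strain bought. The 3 Ctrl libraries were the controls of the experiment, the 3 IR libraries came from mice exposed to ionizing radiation, and the 3 Ab_IR and 3 L_IR libraries came from irradiated mice with a further condition that the labels abbreviate as Ab or L without spelling it out. Per the labels, cells were taken 3 days after radiation, and the study's methods describe a single sublethal whole-body gamma exposure. The methods define an HSC as a cell without lineage antigens that displays Sca-1 and c-Kit and lacks Flt3 and CD34, so the proteins of 4 of the 7 genes (Ly6a, Kit, Flt3 and Cd34) belong to the sort gate. The deposited values carry no named unit and were read as FPKM, fragments per kilobase of transcript scaled to library size. FPKM allow levels of different genes to be set side by side. As the files hold no reads per gene, depth is unknown. The labels do not say whether the replicates of a group came from separate mice, and the p-values below measure only the spread between these libraries.

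Blood formation starts from HSCs, which self-renew in the marrow and give rise to progenitors of decreasing potency. c-Kit (Kit) is the receptor tyrosine kinase for stem cell factor and Flt3 is its relative for FLT3 ligand, gained as stem cells become multipotent progenitors. Sca-1 (Ly6a) is a lipid-anchored protein induced by interferon, CD34 is a sialomucin of progenitors, CD150 (Slamf1) and CD48 (Cd48) are SLAM family receptors whose pattern separates stem cells from progenitors, and EPCR (Procr) is the endothelial protein C receptor found on primitive stem cells.

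The upstream sequences of the 4 genes that were lower in every IR library than in any Ctrl library, Kit, Flt3, Cd34 and Cd48, are shown because their RNA levels moved in the same direction in that comparison. RefSeq start sites on GRCm38.p6 were used, and each run is printed 5′ to 3′ on the strand of its gene and stops before the transcript annotated by GENCODE. Capitals mark matches, on either strand, to short core motifs of blood transcription factors. For RUNX factors the letters searched were TGTGGT. For GATA factors they were AGATAA and, as a further accepted form with another first base, TGATAA. For ETS factors the search used GAGGAA. None of these motifs overlaps another by its letters in the sequences shown. The Kit sequence lies at chr5:75574737-75574915 on the + strand and the Flt3 sequence at chr5:147400490-147400739 on the - strand. The Cd34 and Cd48 sequences lie on the + strand at chr1:194938571-194938818 and chr1:171681742-171681991.
Kit: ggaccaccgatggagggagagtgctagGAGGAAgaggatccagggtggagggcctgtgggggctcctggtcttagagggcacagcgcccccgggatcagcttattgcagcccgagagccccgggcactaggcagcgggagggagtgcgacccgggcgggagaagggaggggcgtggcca
Flt3: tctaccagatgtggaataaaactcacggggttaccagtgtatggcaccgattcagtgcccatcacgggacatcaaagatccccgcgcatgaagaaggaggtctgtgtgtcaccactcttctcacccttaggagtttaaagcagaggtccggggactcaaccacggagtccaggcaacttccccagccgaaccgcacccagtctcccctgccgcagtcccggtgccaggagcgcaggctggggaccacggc
Cd34: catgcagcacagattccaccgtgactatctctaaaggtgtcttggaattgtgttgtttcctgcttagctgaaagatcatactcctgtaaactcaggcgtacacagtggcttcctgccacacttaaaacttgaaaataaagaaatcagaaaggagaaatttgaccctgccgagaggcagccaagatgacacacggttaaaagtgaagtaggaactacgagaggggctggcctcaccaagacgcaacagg
Cd48: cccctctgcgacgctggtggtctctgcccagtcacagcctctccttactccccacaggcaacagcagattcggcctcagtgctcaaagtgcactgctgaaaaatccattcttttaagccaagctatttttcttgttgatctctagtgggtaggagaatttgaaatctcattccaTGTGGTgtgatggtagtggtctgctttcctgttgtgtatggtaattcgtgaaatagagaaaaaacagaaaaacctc
Within the 250 bases before the RefSeq start, Kit held a GAGGAA match 223 to 218 bases upstream, and Cd48 held TGTGGT 76 to 71 bases upstream. Neither the Flt3 nor the Cd34 window held any of these letters. Among 27025 RefSeq promoter windows of the same length, 14.2% held the RUNX letters, 17% the GATA letters and 23.1% the ETS letters. GC content was 70.8% with 17 CpG dinucleotides for Kit, 59.2% with 13 for Flt3, 46.4% with 6 for Cd34 and 46% with 4 for Cd48, beside medians of 52% and 6 over all windows. The 4 sequences thus differ in base composition and share no searched motif.

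The levels of the 7 genes differed widely. Averaged over the 12 libraries, Cd48 was the most abundant at 59.6 FPKM, followed by Ly6a at 44.3, Kit at 16.6, Cd34 at 14.3 and Flt3 at 6.25 FPKM. Procr averaged 0.788 FPKM and Slamf1 0.538 FPKM. Of the 12699 genes that reached 1 FPKM in at least 3 libraries, 92.8% lay below Cd48 and 1.58% below Procr. The SLAM code of stem cells is CD150 present and CD48 absent, and the RNA levels ran the other way, with Cd48 among the abundant transcripts and Slamf1 under 1 FPKM in all 12 libraries. Flt3 and Cd34, whose proteins the gate excludes, were at 9.13 to 12.07 FPKM and 18.99 to 20.65 FPKM in Ctrl. These are RNA levels, and surface protein was not measured here.

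The lineage antigens of the gate were likewise not silent in RNA. Itgam, which encodes Mac-1, ranged from 23.2 to 53.0 FPKM over the 12 libraries, Ly6g, part of Gr-1, from 0.83 to 11.1 FPKM and Cd3e, a T cell receptor chain, from 0.76 to 2.37 FPKM. Ptprc, the common leukocyte antigen gene, was at 13.6 to 19.8 FPKM, and B220 is only its B cell isoform. Among 18 further surface genes of stem cells, Tek, Emcn and Robo4 stayed under 1 FPKM in every library. The rest reached 1 FPKM in at least 1 library, with Cd81 at 27.1 to 34.0, Prom1 at 12.85 to 29.7 and Adgrg1 at 4.83 to 31.9 FPKM. Because RNA of lineage antigens was also present, the label HSC is used below as the name of the sort. In such bulk samples, fewer cells of a type and less RNA per cell cannot be told apart.

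Ctrl replicate 1 stood apart from the other 11 libraries, in that 44.1% of its gene rows were at 0 while the range elsewhere was 24.7% to 27.3%. The libraries also split by heart transcripts. Nppa, an atrial hormone gene, was at 51.2 to 63.9 FPKM in 5 libraries (all IR libraries and Ctrl replicates 2 and 3) and at 0 to 0.26 FPKM in the other 7. Apart from Ctrl replicate 1, this split coincides with the contrast of IR against Ab_IR and L_IR, so the split and these contrasts cannot be told apart except through that library. FPKM sums were 344338 to 405123 per library, and immunoglobulin genes held 9 to 22.6% of them. The summed level of 8 heart muscle genes was 0.26 to 141 FPKM in Ctrl, 115 to 147 in IR, 0.35 to 0.59 in Ab_IR and 0.3 to 0.49 in L_IR.

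**Figure D1:**
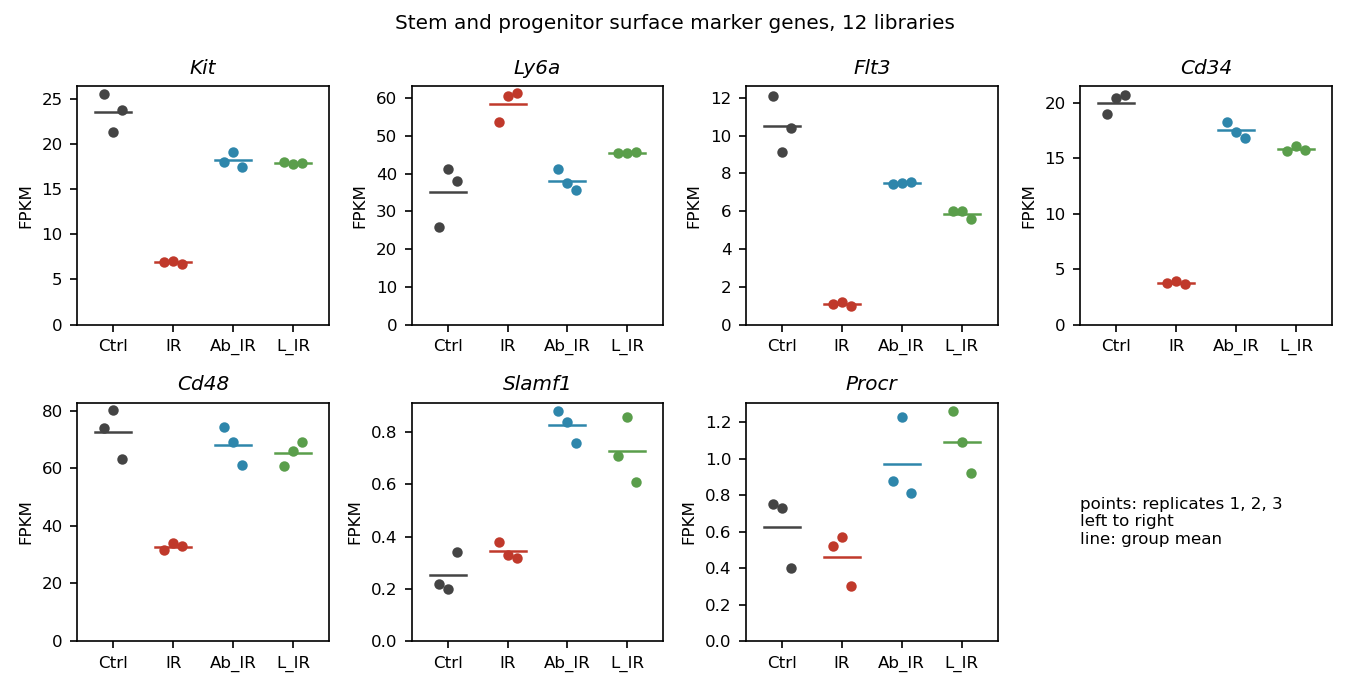
FPKM (y axis, linear from 0) of the 7 marker genes in each library of the 4 groups (x axis). Points are the 3 replicates and lines the group means. Kit, Flt3, Cd34 and Cd48 were lowest in IR, Ly6a was highest in IR, and Slamf1 and Procr stayed at or under 1.26 FPKM.

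The receptor Kit was at 25.45, 21.28 and 23.7 FPKM in Ctrl replicates 1 to 3 and at 6.92, 7.0 and 6.7 FPKM in IR. In Ab_IR it was at 17.95, 19.07 and 17.43 FPKM, and in L_IR at 18.0, 17.81 and 17.88 FPKM. The IR libraries lay far under all others, the Ab_IR and L_IR libraries overlapped, and all 6 of them lay between IR and Ctrl. Group means were 23.5 ± 2.09 (SD, n = 3), 6.87 ± 0.155, 18.15 ± 0.838 and 17.9 ± 0.0961 FPKM, so IR held 29.3% of the Ctrl mean, Ab_IR 77.3% and L_IR 76.2%. Kit lies on chromosome 5 (GRCm38, 75574916 to 75656722, + strand) and its longest coding transcript has 21 exons.

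Ly6a, the gene of Sca-1, ran opposite to Kit. It was at 25.92, 41.13 and 38.17 FPKM in Ctrl, at 53.66, 60.53 and 61.47 FPKM in IR, at 41.23, 37.46 and 35.67 FPKM in Ab_IR and at 45.49, 45.4 and 45.76 FPKM in L_IR. The IR libraries were the highest 3 of the 12, L_IR lay between them and the other groups, and Ab_IR overlapped Ctrl. Ctrl replicate 1 was the lowest of all. Means were 35.1 ± 8.06 FPKM in Ctrl and 58.55 ± 4.26 in IR, with 38.1 ± 2.84 for Ab_IR and 45.55 ± 0.187 for L_IR (SD, n = 3). Ly6a is a short gene of chromosome 15 (74994877 to 74998031, - strand, 4 exons) in a cluster of similar genes. How reads shared by such copies were assigned is not given in the sources used here.

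Flt3 showed the widest range in proportion to its level. It was at 12.07, 9.13 and 10.39 FPKM in Ctrl, at 1.07, 1.22 and 0.96 FPKM in IR, at 7.45, 7.47 and 7.57 FPKM in Ab_IR and at 6.0, 6.02 and 5.6 FPKM in L_IR. No group overlapped another, in the order Ctrl, Ab_IR, L_IR and IR. The means were 10.5 ± 1.48, 1.08 ± 0.131, 7.50 ± 0.0643 and 5.87 ± 0.237 FPKM for Ctrl, IR, Ab_IR and L_IR (SD, n = 3), and IR kept 10.3% of the Ctrl mean. Flt3 lies on chromosome 5 (147330741 to 147400489, - strand, 24 exons).

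Cd34 followed the same order. Its values were 18.99, 20.4 and 20.65 FPKM in Ctrl, 3.78, 3.91 and 3.66 FPKM in IR, 18.26, 17.38 and 16.82 FPKM in Ab_IR and 15.6, 16.09 and 15.76 FPKM in L_IR. Here too the 4 groups did not overlap. Groups without overlap were common in these libraries, and 7010 of the 12072 genes tested in IR against Ctrl showed no overlap. The same held for 8806 of 12067 in Ab_IR against IR and 8666 of 12163 in L_IR against IR. It held for 6327 of 12194 in Ab_IR against L_IR, and against Ctrl for 4070 of 12134 (Ab_IR) and 4421 of 12251 (L_IR). The IR mean of 3.78 ± 0.125 FPKM was 18.9% of the Ctrl mean of 20.0 ± 0.895 FPKM, while Ab_IR (17.5 ± 0.726) and L_IR (15.8 ± 0.250) were at 87.4% and 79.0% of it (SD, n = 3). The gene lies on chromosome 1 (194938819 to 194961279, + strand, 8 exons).

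The SLAM receptor gene Cd48 was at 73.95, 80.35 and 63.09 FPKM in Ctrl, at 31.6, 34.01 and 32.82 FPKM in IR, at 74.25, 68.92 and 61.15 FPKM in Ab_IR and at 60.63, 65.79 and 69.07 FPKM in L_IR. Ctrl, Ab_IR and L_IR overlapped and all of their libraries lay above IR. The IR mean of 32.8 ± 1.21 FPKM was 45.3% of the Ctrl mean of 72.5 ± 8.73 FPKM, and the means of Ab_IR (68.1 ± 6.59) and L_IR (65.2 ± 4.26) were at 94.0% and 89.9% of it (SD, n = 3). Slamf1, 61.9 kb from Cd48 on chromosome 1 (171767127 to 171801184, + strand, 7 exons), was at 0.22, 0.2 and 0.34 FPKM in Ctrl and at 0.38, 0.33 and 0.32 FPKM in IR. It was higher in each Ab_IR library, at 0.88, 0.84 and 0.76 FPKM, and in each L_IR library, at 0.71, 0.86 and 0.61 FPKM. Ctrl and IR overlapped, as did Ab_IR and L_IR, and no Ab_IR or L_IR library fell into the range of the former. Procr (chromosome 2, 155751117 to 155755471, + strand, 4 exons) was at 0.75, 0.73 and 0.4 FPKM in Ctrl, at 0.52, 0.57 and 0.3 FPKM in IR, at 0.88, 1.23 and 0.81 FPKM in Ab_IR and at 1.26, 1.09 and 0.92 FPKM in L_IR. Its Ab_IR and L_IR libraries all exceeded those of Ctrl and IR by small steps. Over all tested genes, 8806 of 12067 showed no overlap in Ab_IR against IR and 8666 of 12163 in L_IR against IR. Against Ctrl this was so for 4070 of 12134 in Ab_IR and 4421 of 12251 in L_IR.

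Whether radiation changed the markers was asked by IR against Ctrl. Kit, Flt3, Cd34 and Cd48 fell and Ly6a rose. Of the 7 genes, 5 reached 1 FPKM in 3 of the 6 libraries and were tested, and all 5 passed an adjusted p of 0.05 (limma, Benjamini-Hochberg over 12072 genes), where 43.1% of all tested genes passed. With an absolute log2 fold change above 1 also required, 4 of 5 were called, against 7.60% of all tested genes. The log2 fold change, on the log2(FPKM + 1) scale, was -2.46 for Flt3 (SE 0.112, adjusted p = 3.17e-05), a size exceeded by 0.588% of tested genes. Cd34 changed by -2.13 (SE 0.0640, adjusted p = 8.06e-06), Kit by -1.63 (SE 0.0788, adjusted p = 3.83e-05) and Cd48 by -1.11 (SE 0.0974, adjusted p = 3.27e-04). Ly6a was the only tested marker to go up, by 0.75 (SE 0.173, adjusted p = 0.0145). Ly6a no longer passed without IR replicate 2 (limma adjusted p = 0.0556) or IR replicate 3 (adjusted p = 0.0567). Within the libraries that carry Nppa, which leaves out Ctrl replicate 1, the log2 fold changes were -2.37 for Flt3, -2.17 for Cd34, -1.58 for Kit, -1.09 for Cd48 and 0.55 for Ly6a. All 5 passed, as did 6773 of 11593 tested genes. Slamf1 and Procr were below the filter, and in a limma fit without it neither passed (log2 fold changes 0.10 and -0.15, adjusted p = 0.380 and 0.543). In that fit 4732 of 28598 genes passed.

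Ab_IR against IR gave the opposite picture. Kit, Flt3, Cd34 and Cd48 were higher in Ab_IR and Ly6a was lower, all 5 past the threshold of adjusted p, as were 68.7% of the 12067 tested genes. Flt3 rose by 2.03 on the log2 scale (SE 0.0582, limma adjusted p = 2.73e-07), Cd34 by 1.95 (SE 0.0460, adjusted p = 1.30e-07), Kit by 1.28 (SE 0.0451, adjusted p = 6.60e-07) and Cd48 by 1.03 (SE 0.0704, adjusted p = 1.38e-05). These 4 were also past an absolute log2 fold change of 1, as were 7.57% of all tested genes. Ly6a fell by 0.61 (SE 0.0702, adjusted p = 1.93e-04). A fit of all 12 libraries took the Nppa split as a term, which leaves Ctrl replicate 1 to separate the split from the groups. There Kit, Flt3, Cd34 and Cd48 still passed at 1.11, 1.75, 2.06 and 0.97, as did 7932 of 12699 tested genes. The Ly6a difference was -0.01 in that fit (adjusted p = 0.929).

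L_IR against IR moved the same 5 genes in the same directions, and the IR libraries are shared by both contrasts. All 5 passed, beside 66.8% of the 12163 tested genes. Cd34 was higher in L_IR by 1.81 (SE 0.0351, limma adjusted p = 8.47e-08), Flt3 by 1.72 (SE 0.0607, adjusted p = 9.64e-07) and Kit by 1.26 (SE 0.0298, adjusted p = 1.92e-07). These were the 3 members called at a log2 fold change above 1, as 6.22% of tested genes were, since Cd48 rose by 0.97 (SE 0.0514, adjusted p = 5.87e-06). Ly6a fell by 0.35 (SE 0.0508, adjusted p = 7.61e-04). In the fit of all 12 libraries its adjusted p was 0.0577, and with the Nppa split as a term its difference turned to 0.24 (adjusted p = 0.0934). Slamf1 and Procr, under the filter in both contrasts, passed in fits without it. So did 9786 of 28784 genes for Ab_IR and 9449 of 29116 for L_IR. For Slamf1 the log2 fold change was 0.44 for Ab_IR (adjusted p = 0.00133), with 0.36 for L_IR (adjusted p = 0.00921). For Procr the values were 0.43 (adjusted p = 0.0304) and 0.52 (adjusted p = 0.0111), but with the Nppa split as a term they were 0.26 (adjusted p = 0.310) and 0.35 (adjusted p = 0.192). On the log2(FPKM + 1) scale such low genes show less than their proportional change, which in mean FPKM was 2.41-fold and 2.12-fold for Slamf1.

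**Figure D2:**
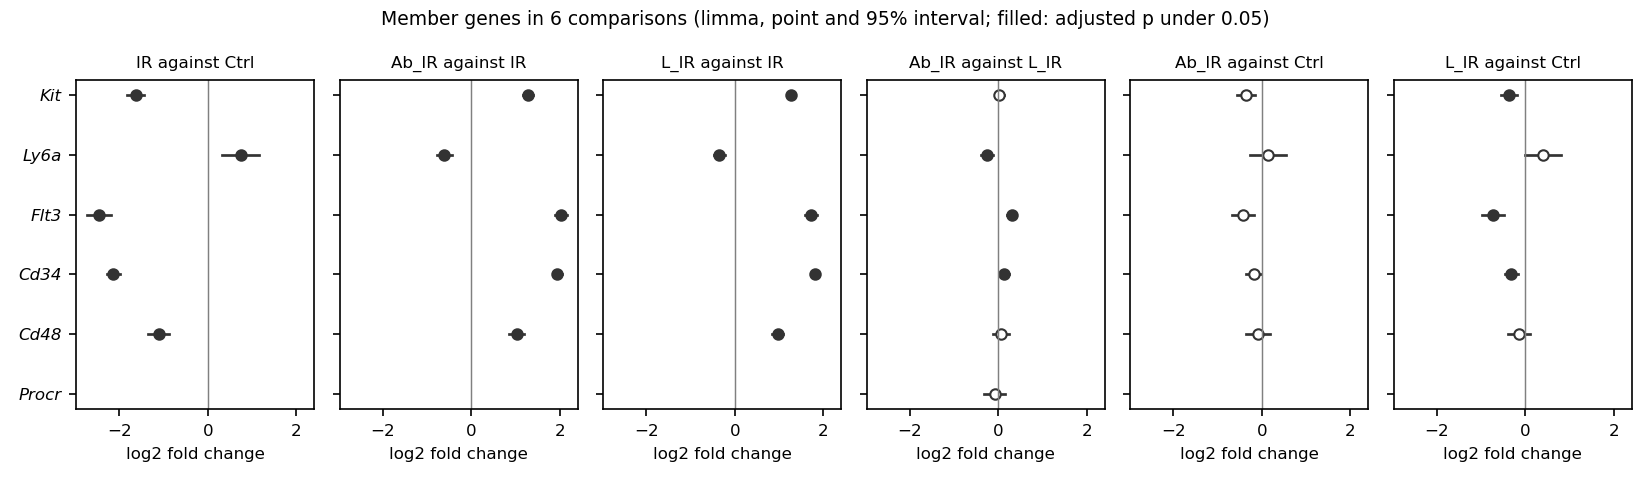
Log2 fold change (x axis) of the tested marker genes (y axis) in the 6 comparisons, on the log2(FPKM + 1) scale. Points are limma estimates, lines 95% intervals, and filled points have an adjusted p under 0.05. Ly6a lies on the opposite side of 0 from Kit, Flt3, Cd34 and Cd48 in all 6 panels, though some intervals of the last 3 panels cross 0. Only in Ab_IR against L_IR was Procr tested.

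Ab_IR against L_IR asked whether the further conditions differed from each other. Flt3 and Cd34 were higher and Ly6a lower in Ab_IR, by small amounts, and 3 of the 6 tested members passed, against 38.0% of the 12194 tested genes. No member was called at a log2 fold change above 1, as 0.533% of genes were. Flt3 differed by 0.31 (SE 0.0431, limma adjusted p = 0.00183), Ly6a by -0.25 (SE 0.0541, adjusted p = 0.0101) and Cd34 by 0.14 (SE 0.0419, adjusted p = 0.0389). Cd34 no longer passed under most alternatives, among them no filter on low values (limma adjusted p = 0.0627). Its difference was near 0 once immunoglobulin genes were left out (log2 fold change -9.46e-04, adjusted p = 0.991). Ly6a no longer passed in the limma fit of all 12 libraries (adjusted p = 0.234). Kit (0.02, 95% interval -0.08 to 0.12), Cd48 (0.06, -0.12 to 0.24) and Procr (-0.09, -0.33 to 0.16) did not pass. The signs of Kit and Cd48 were not stable either, as Kit turned to -0.01 and Cd48 to -0.0019 under quantile normalization.

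Against Ctrl, the levels in Ab_IR and L_IR tell how far each marker lay from unirradiated cells. In Ab_IR against Ctrl, 0 of 5 tested members passed in limma, where 2.10% of the 12134 tested genes passed and 0.923% were also past a log2 fold change of 1. At an unadjusted p under 0.05 were Kit, Flt3 and Cd34, with log2 fold changes of -0.35 (adjusted p = 0.114), -0.43 (adjusted p = 0.109) and -0.18 (adjusted p = 0.212). Their libraries did not overlap with Ctrl, which held for 4070 of the 12134 tested genes. Fitted with all 12 libraries, these 3 passed (adjusted p = 0.00488, 0.00842 and 0.0279), but so did 2326 of 12699 tested genes, against 255 of 12134 in the fit of 6 libraries. Without Ctrl replicate 1, Flt3 alone passed at -0.34 (adjusted p = 0.0466), beside 677 of 11988 tested genes. With the Nppa split as a term, Kit, Flt3 and Ly6a passed, as did 7365 of 12699 tested genes. In L_IR against Ctrl, Flt3 at -0.74 (SE 0.103, adjusted p = 0.00802), Kit at -0.37 (SE 0.0776, adjusted p = 0.0358) and Cd34 at -0.32 (SE 0.0610, adjusted p = 0.0259) passed, 3 of 5, beside 8.84% of the 12251 tested genes. None was past a log2 fold change of 1, as 2.65% of genes were. With the replicate number as a block only Flt3 passed, at an adjusted p of 0.0301, beside 525 of the 12251 genes, and without L_IR replicate 3 none of the 5 did, beside 414 of 12054 genes. Cd48 lay nearest to Ctrl among the 4 lowered markers, at -0.09 (95% interval -0.37 to 0.19) in Ab_IR and -0.15 (-0.40 to 0.11) in L_IR. For Ly6a the difference from Ctrl was 0.14 in Ab_IR, with an adjusted p of 0.628, and -0.06 once Ctrl replicate 1 was left out. L_IR differed by 0.39 (adjusted p = 0.207), and by 0.20 without that library (adjusted p = 0.0370). With the Nppa split as a term the Ly6a differences from Ctrl were larger and passed, at 0.54 (adjusted p = 5.42e-04) in Ab_IR libraries and, in those of L_IR, at 0.79 (adjusted p = 5.20e-05), where 6814 of 12699 tested genes passed.

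Pairs of markers were also compared within each library. The log2 ratios were taken from FPKM + 1, so they depend on the pseudocount and on library scaling where a gene is low. The log2 ratio of Kit to Ly6a, the positive markers of the gate, averaged -0.54 ± 0.46 in Ctrl and -2.92 ± 0.12 in IR (SD, n = 3). It was -1.03 ± 0.11 in Ab_IR and -1.30 ± 0.01 in L_IR. In plain FPKM, Ctrl held 0.707 Kit per Ly6a and IR 0.118. No group overlapped another, and each of the 6 contrasts had a two-sided exact permutation p of 0.1, the smallest that 3 against 3 libraries allow, so none could reach 0.05. Over the 12 contrasts of this ratio and the next, the Benjamini-Hochberg adjusted value of these exact permutation tests was 0.109. Without Ctrl replicate 1, the difference between Ab_IR and Ctrl went from -0.49 to -0.24. The log2 ratio of Slamf1 to Cd48 averaged -5.87 ± 0.26 in Ctrl and -4.65 ± 0.08 in IR, with -5.24 ± 0.09 for Ab_IR and -5.26 ± 0.16 for L_IR. It was highest in IR, where Cd48 was lowest, and lowest in Ctrl, and no groups overlapped except Ab_IR and L_IR (exact permutation p = 0.8, adjusted 0.8). The other contrasts were again at an exact permutation p of 0.1 (adjusted 0.109). The pseudocount weighs on this ratio because Slamf1 is under 1 FPKM: with 0.1 in place of 1, the difference between Ab_IR and IR went from -0.58 (exact permutation p = 0.1) to 0.02 (exact permutation p = 0.9). In plain FPKM the ratios of IR, Ab_IR and L_IR were 0.0105, 0.0122 and 0.0112.

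**Figure D3:**
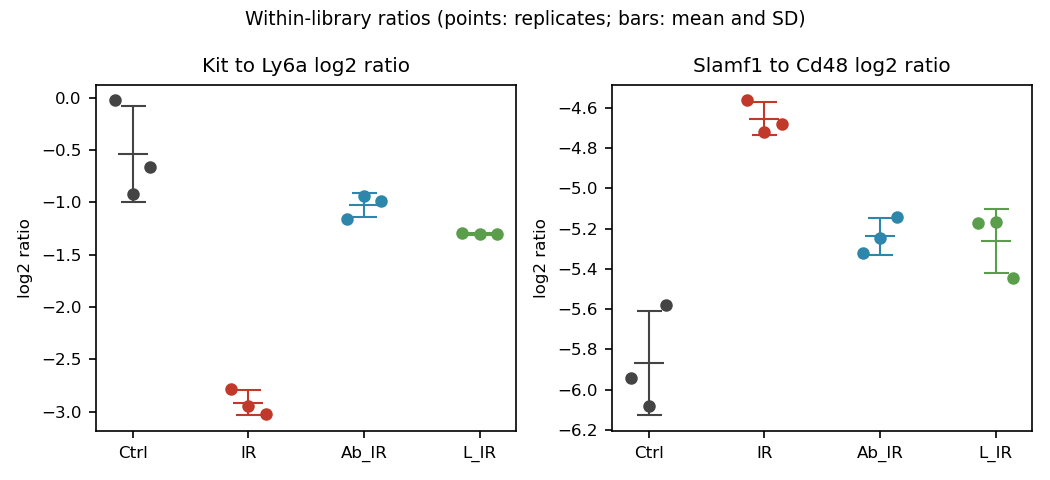
Log2 ratio of Kit to Ly6a (left) and Slamf1 to Cd48 (right) in each library of the 4 groups, computed from FPKM + 1. Points are replicates, bars the mean and SD. The Kit to Ly6a ratio was lowest in IR at -2.92 and the Slamf1 to Cd48 ratio was highest there at -4.65.

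Relatives, ligands and signal proteins of Kit and Flt3 were followed next. Csf1r, the macrophage receptor of the same kinase family, went from 17.0 FPKM in Ctrl to 7.88 in IR, 19.9 in Ab_IR and 20.5 in L_IR, and fell by 1.02 in IR (limma adjusted p = 1.62e-04). Flt3l, the ligand of Flt3, fell by 0.76 (adjusted p = 0.00137), whereas Kitl, the ligand of Kit, stayed under 1 FPKM in every library. All 3 tested genes of this list of 5 fell in IR, and all 3 were higher in Ab_IR and in L_IR than in IR, comparisons in which 43.1%, 68.7% and 66.8% of all tested genes passed. Of 18 signal proteins below the receptors, 5 rose, 4 fell and 9 did not pass in IR against Ctrl, with a median log2 fold change of 0.09 beside -0.05 over all tested genes. Lyn, a Src family kinase, rose by 0.96 (adjusted p = 2.27e-04) and Cbl, a ubiquitin ligase that sends the receptors to degradation, by 0.78 (adjusted p = 0.00275). Jak2 fell by 0.50 (adjusted p = 0.0141). Against IR, 4 of the 18 were higher and 10 lower in Ab_IR, and 6 were higher and 7 lower in L_IR. The 9, 14 and 13 signal proteins that passed in the 3 comparisons lie near those shares over all tested genes.

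Of 9 other Ly6 genes in the files, 5 were tested in IR against Ctrl, 0 rose and 2 fell by the limma test, a share near the 43.1% of all tested genes that passed. Ly6c1 fell from 32.2 to 4.55 FPKM (log2 fold change -2.58, adjusted p = 6.39e-06) and Ly6c2, a monocyte marker, from 158 to 35.1 FPKM (-2.14, adjusted p = 2.05e-05). The latter genes are near-copies of each other, so the split of reads between them is uncertain. In Ab_IR against IR the same genes rose, Ly6c1 by 2.33, while Ly6a fell. As Sca-1 is an interferon-induced protein, the 20 interferon genes are set beside it. In IR against Ctrl, 12 of 19 tested fell and 0 rose, with Isg15 going from 11.4 to 4.04 FPKM (-1.34, adjusted p = 0.00693), and 17 of 19 were higher in Ab_IR than in IR and 18 of 19 in L_IR. The shares of all tested genes that passed in these comparisons, in either direction, were 43.1%, 68.7% and 66.8%. The Ly6a differences had the opposite sign to most of this list, but with the Nppa split as a term that of Ly6a was -0.01 in Ab_IR against IR and 0.24 in L_IR against IR.

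In the SLAM cluster of chromosome 1, Cd48 lies between Slamf7 and Slamf1. Its level of 72.5 FPKM in Ctrl was the highest of the 7 genes of the cluster, ahead of Ly9 at 10.96 and Cd84 at 8.61 FPKM, while its neighbours Slamf7 and Slamf1 were at 2.22 and 0.253 FPKM. Cd84, a self-binding SLAM receptor, fell in IR by 0.77 (limma adjusted p = 8.22e-04) and Cd244a, the receptor for CD48, by 0.59 (adjusted p = 0.00814). Ly9, at 10.96 FPKM in Ctrl and 10.6 FPKM in IR, did not pass. Of 6 tested genes of the SLAM list besides the members, 2 fell and 0 rose in IR, beside 43.1% of all tested genes that passed. In Ab_IR 5 and in L_IR all 6 were higher than in IR, Slamf7 by 0.45 and 1.04, where 68.7% and 66.8% of all tested genes passed. Slamf7 reached 6.48 FPKM in L_IR and 3.97 FPKM in Ab_IR, and differed between them by -0.59 (adjusted p = 4.61e-04).

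**Figure D4:**
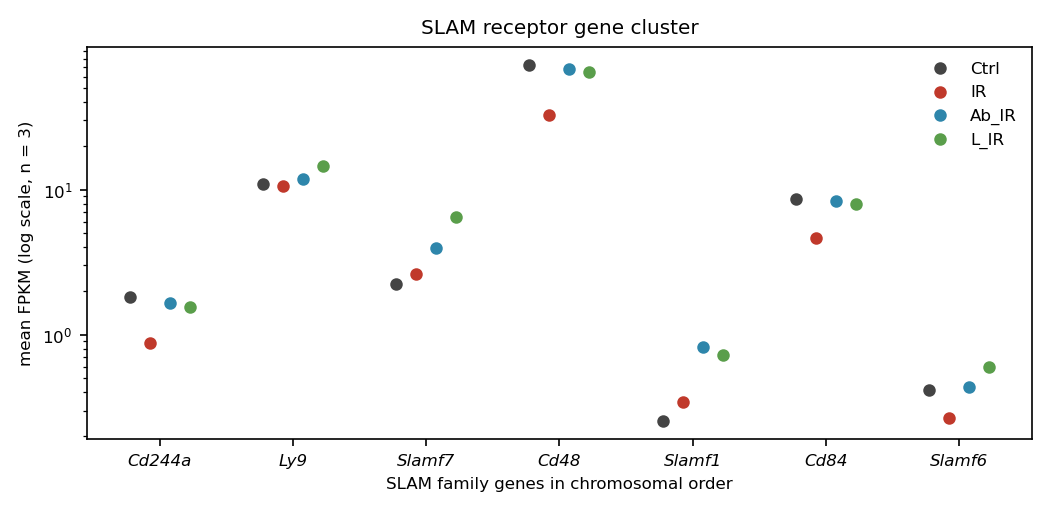
Mean FPKM (y axis, log scale, n = 3) of 7 SLAM family genes in their order along chromosome 1 (x axis), colored by group. Cd48 was the highest at 72.5 FPKM in Ctrl and 32.8 in IR, and Slamf1 was under 1 FPKM in every group.

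CD34 and EPCR have few relatives. Of the CD34 family, Podxl, an anti-adhesive sialomucin, was at 3.33 FPKM in Ctrl and 4.23 in IR but at 0.383 in Ab_IR and 0.440 in L_IR. It was lower than in IR by 1.92 (limma adjusted p = 2.73e-07) and 1.86 (adjusted p = 1.00e-06), in the reverse direction to Cd34. The 3 tested genes of the protein C and thrombin list, Thbd, F2r and F2rl2, all fell in IR and were all higher in Ab_IR and in L_IR than in IR, comparisons in which 43.1%, 68.7% and 66.8% of all tested genes passed. F2r, the main thrombin receptor, went from 7.05 to 1.81 FPKM in IR (log2 fold change -1.52, adjusted p = 2.89e-05), and Thbd, the thrombin cofactor that activates protein C, from 3.05 to 1.44 FPKM (-0.72, adjusted p = 0.00996). Procr itself was under the filter.

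Other surface genes of stem cells were compared with Kit. Of 18, 13 were tested in IR against Ctrl, 8 fell and 1 rose, where 43.1% of all tested genes passed in either direction. Adgrg1, an adhesion receptor of HSCs, fell from 26.9 to 5.13 FPKM (-2.17, limma adjusted p = 6.59e-05) and Eng, a TGF-beta coreceptor, from 16.05 to 4.12 FPKM (-1.73, adjusted p = 4.85e-05). Prom1, the gene of CD133, rose from 16.9 to 29.5 FPKM (0.77, adjusted p = 1.36e-04). The median log2 fold change over the tested genes of this list was -0.70, beside -0.05 over all. In Ab_IR 13 of 14 tested were higher than in IR and 1, Prom1, was lower, and in L_IR 11 were higher and 1 lower, where 68.7% and 66.8% of all tested genes passed. Surface markers of later progenitors divided. Epor, the erythropoietin receptor, fell by 2.19 (adjusted p = 2.57e-05) and Cd27, a costimulatory receptor of the TNF receptor family, by 2.15 (adjusted p = 4.36e-05), whereas Csf2rb, the shared chain of the IL-3 and GM-CSF receptors, rose by 1.61 (adjusted p = 3.84e-05) from 24.0 to 75.3 FPKM and Csf3r, the G-CSF receptor, by 0.88 (adjusted p = 0.00115). In all, 4 of the 12 genes of that list rose and 4 fell, beside the 43.1% over all tested genes.

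Markers of several other lineages were lower in IR than in Ctrl, as Kit, Flt3, Cd34 and Cd48 were, where 43.1% of all tested genes passed. All 9 erythroid genes fell in IR, and their summed level was 2862 to 3423 FPKM in Ctrl, 506 to 521 in IR, 2889 to 3113 in Ab_IR and 1557 to 1618 in L_IR. All 8 tested of 10 megakaryocyte and platelet genes fell, from sums of 64.9 to 76.3 FPKM in Ctrl to 13.97 to 16.2 in IR, with 151 to 154 in Ab_IR and 93.0 to 99.4 in L_IR. For basophils and mast cells, the latter of which also carry c-Kit, 7 of 7 tested genes of 10 fell, from 623 to 704 FPKM to 228 to 236 FPKM, with 819 to 871 in Ab_IR and 518 to 541 in L_IR. The 6 tested of 8 dendritic cell genes, Flt3 among them, fell as well, from 79.8 to 82.6 FPKM to 38.9 to 45.1 FPKM, with 86.5 to 89.3 in Ab_IR and 88.9 to 92.9 in L_IR. The 6 tested of 8 stromal genes fell too, from 166 to 208 FPKM in Ctrl to 10.8 to 11.6 in IR, with 52.9 to 59.2 in Ab_IR and 51.3 to 53.4 in L_IR. No list had a gene at 0 in all 12 libraries. Among the genes of least signal were the stromal Lepr and Col3a1 and the mast cell proteases Mcpt4 and Tpsb2, which stayed under 1 FPKM throughout.

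Lists of plasma cell, neutrophil and other genes are set beside Ly6a. In IR against Ctrl, 7 of 8 plasma cell genes rose and 0 fell, with sums of 638 to 749 FPKM in Ctrl, 1005 to 1027 in IR, 1095 to 1183 in Ab_IR and 1481 to 1507 in L_IR. Against IR, 3 of the 8 were higher and 5 lower in Ab_IR, and 6 were higher and 1 lower in L_IR, where 68.7% and 66.8% of all tested genes passed. Jchain, which joins IgM and IgA units, made up most of these sums, at 720 FPKM in IR and 954 FPKM in Ab_IR. Of 12 neutrophil genes 6 rose, 1 fell and 5 did not pass in IR against Ctrl, with S100a9 going from 1472 to 3765 FPKM, and their sums were 10960 to 12840 FPKM in Ctrl, 16290 to 16560 in IR, 12070 to 12660 in Ab_IR and 8884 to 9099 in L_IR. Of the remaining lists, T and NK cell genes fell in 5 of 10, macrophage genes fell in 4 and rose in 1 of 9 tested, B cell genes fell in 1 of 2 tested, and endothelial genes rose in 1 and fell in 1 of 4 tested. Their summed levels in IR were 229 to 234, 144 to 150, 24.5 to 25.0 and 24.4 to 24.8 FPKM. In Ctrl they were 185 to 296, 166 to 177, 28.4 to 32.9 and 30.2 to 40.6 FPKM. Nkg7 made up most of the T and NK cell sums, at 209 FPKM in IR and 215 FPKM in Ctrl. F13a1 was the highest gene of the macrophage list, at 66.6 FPKM in IR and 53.9 FPKM in Ctrl. The counts of IR against Ctrl stand beside 43.1% of tested genes that passed. The part of any of these cell types in the marker levels was not tested.

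Genes were also ranked by how closely they followed each marker over the 12 libraries, by the root mean square difference of log2(FPKM + 1) after centring each gene, among the 7173 genes that averaged 5 FPKM or more. This is a description, as the libraries share groups. Nearest to Kit were Adcy6 (0.0840), Rgs12 (0.1004) and Cyth3 (0.109), against a median of 0.645 over all genes compared. Flt3 was followed most closely by Slc4a1 (0.0894), the anion exchanger of red cells, Adgrg1 (0.126) and Samd14 (0.126). Cd34 was followed by Slc14a1 (0.0774), a urea transporter of red cells, Abcb4 (0.0879) and Sec14l2 (0.0946). The genes nearest to Cd48 were Pdcd4 (0.0929), Glipr1 (0.0995) and Igtp (0.1005), and those nearest to Ly6a were Txnl4a (0.0998), Tmem115 (0.107) and Ppa1 (0.109). Among the members, Flt3 and Cd34 were the closest pair (0.188) and Ly6a and Flt3 the most distant (1.23). Kit lay nearer to Cd48 (0.223) and Cd34 (0.268) than to Flt3 (0.329).

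**Figure D5:**
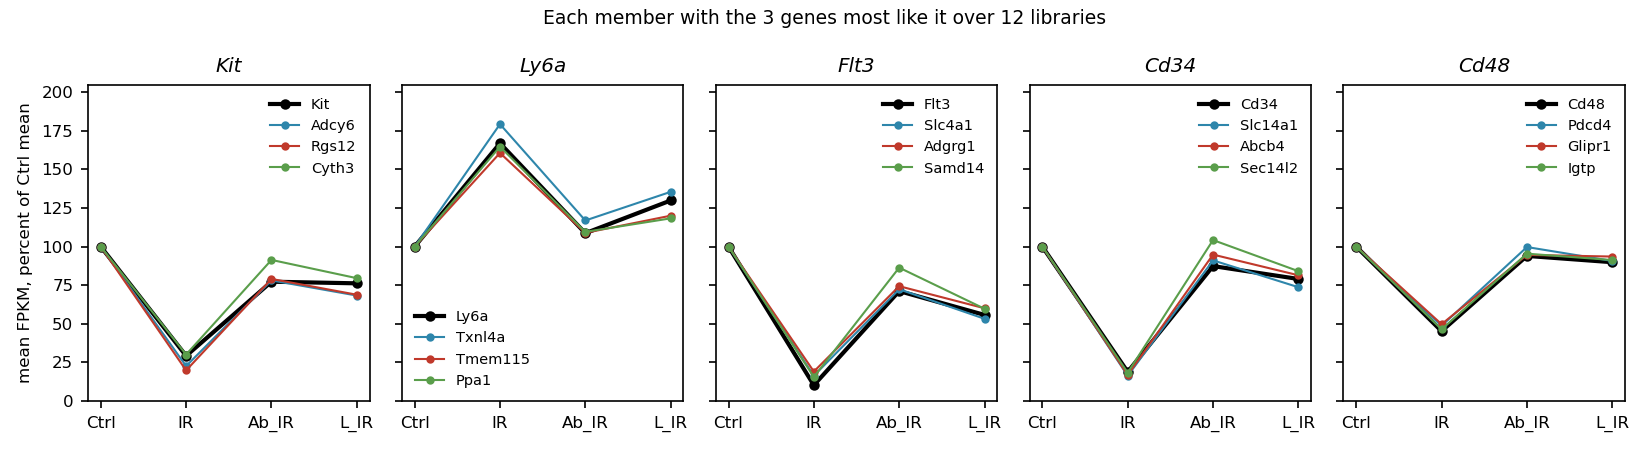
Mean FPKM as percent of the Ctrl mean (y axis) in the 4 groups (x axis) for each of 5 markers (black) and the 3 genes nearest to it over 12 libraries (colored). Kit, Flt3, Cd34 and Cd48 dip in IR, to 10.3% of Ctrl for Flt3, and Ly6a rises to 167%.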

How the data were processed

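RNA was measured in 12 libraries, 4 groups of 3 (Ctrl, IR, Ab_IR, L_IR) that follow the sample titles. Stranded poly(A) libraries were made, per the labels. The study's methods name RSEM for quantification and a count-based test, while the submitters' processing notes list fastp, HISAT2, StringTie and the GRCm38 (mm10) build. The deposited values, made by the authors per gene and library, carry no named unit and were read as FPKM. Whole reads could not be recovered from them, so the authors' count test was not applied and no counting interval is given. The 7 members and the lists around them were chosen with earlier results of these data known.

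FPKM were taken to log2(FPKM + 1) and tested with limma 3.58.1 in R 4.3.3 (eBayes with trend), with the 2 groups of a comparison in each fit and only genes that reached 1 FPKM in 3 or more of its libraries. Passed means a Benjamini-Hochberg adjusted p under 0.05 over all tested genes, and called also an absolute log2 fold change above 1. Ratios of members were tested by two-sided exact permutation. Lists of relatives, ligands, signal proteins and cell type markers were described by counts. Examples were the up to 2 largest rises and 2 largest falls of a list among genes that passed with a mean of at least 5 FPKM. Flt3l, Kitl, Podxl, Thbd, F2r, F2rl2, Jchain, Slamf7, Ly9, Cd244a and the lineage antigens were named after their values were seen. Gene positions come from GENCODE M21 and upstream sequences from RefSeq, which matched 6 of the 7 members (Ly6a had no entry). Alternatives were a pseudocount of 0.1, other filters, quantile and median scaling, leaving out immunoglobulin genes, summing rows of a name, no trend, a joint fit of all 12 libraries, a block for the replicate number, a term for the split by Nppa (10 FPKM or more), and the removal of each library in turn. Some genes of the lists are not reported here. The scripts were tested on simulated data. Tables and figures were made with Python 3.11.15 and matplotlib 3.10.9.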

Additional observations from a re-analysis of the deposited data

Results flagged for a closer look

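For 3 of the 7 markers the difference from IR was not the same in Ab_IR and in L_IR, by the limma test of Ab_IR against L_IR itself. The effect of Ab minus that of L was 0.31 on the log2 scale for Flt3 (adjusted p = 0.00183), -0.25 for Ly6a (adjusted p = 0.0101) and 0.14 for Cd34 (adjusted p = 0.0389). In this contrast 38.0% of all tested genes passed. For each of the 3, the Ab_IR and L_IR libraries did not overlap, which also held for 6327 of the 12194 tested genes. The Ly6a difference lost significance in the fit of all 12 libraries (adjusted p = 0.234), and that of Cd34 under most alternatives.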

How the results depend on the processing

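Over 42 results for single genes, 483 of 538 alternative values kept their direction and their side of the threshold, 15 became significant, 30 lost significance and 10 changed sign. In IR against Ctrl, Ab_IR against IR and L_IR against IR the falls and rises of Kit, Flt3, Cd34 and Cd48 passed under every alternative that tested them; a minimum mean of 10 FPKM left Flt3 out. The count of members that passed was 3 in Ab_IR against L_IR and 1 with all 12 libraries in one fit, where the count over all genes went from 4628 of 12194 to 2442 of 12699. In Ab_IR against Ctrl it was 0, and 3 with all 12 libraries in one fit or with the Nppa split as a term, and between 0 and 1 when a library was left out. The count over all genes rose there too, from 255 of 12134 to 2326 of 12699 in the joint fit and 7365 of 12699 with the Nppa term. When a library was left out, that count ran from 59 of 11990 to 677 of 11988. In L_IR against Ctrl it was 3, 1 without immunoglobulin genes (699 of 12040 genes against 1083 of 12251), and between 0 and 4 when a library was left out. Over all genes, the count with a library left out ran from 396 of 12051 to 2458 of 12102. The cause of these changes was not tested.

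The 10 sign changes of single genes and the 3 sign changes of the ratios were as follows. With the Nppa split as a term, Ly6a in L_IR against IR went from -0.35 to 0.24. In Ab_IR against L_IR, Kit went from 0.02 to -0.0061 under quantile normalization, -0.0053 under median scaling and -0.12 without immunoglobulin genes, and ranged from -0.016 to 0.0455 when a library was left out. In the same contrast Cd48 went from 0.06 to -0.0019 under quantile normalization, -0.083 without immunoglobulin genes, with a range of -0.0033 to 0.135 when a library was left out, and Cd34 from 0.14 to -9.46e-04 without immunoglobulin genes. Ly6a in Ab_IR against Ctrl ranged from -0.057 (without Ctrl replicate 1) to 0.266 when a library was left out. The Slamf1 to Cd48 log2 ratio of Ab_IR against IR was 0.0165 with a pseudocount of 0.1, and that of Ab_IR against L_IR ranged from -0.0687 to 0.0700 when a library was left out.

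The replicate numbers did not pair the libraries: same-numbered libraries deviated together with correlations between -0.269 and 0.208 over the 6 contrasts. With the replicate block, 1 member passed in L_IR against Ctrl in place of 3 (525 of the 12251 genes in place of 1083). Kit had a limma adjusted p of 0.0991 there and Cd34 of 0.105. In Ab_IR against L_IR 2 members passed in place of 3 (3456 of the 12194 genes in place of 4628). Cd34 had a limma adjusted p of 0.106 in that contrast. The block moved no other member across the threshold of adjusted p. As depth is unknown, the precision of Slamf1 and Procr, at or under 1.26 FPKM, cannot be stated.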
